A study of Rattus norvegicus with 6 samples.

Results

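The 9 genes described here mark the resting and the activated state of hepatic stellate cells. They were Acta2, Tagln, Des, Vim, Lrat, Reln, Hgf, Ngfr and Thy1, taken by their symbols from a table of 19616 genes, and each symbol had 1 row. RNA from the livers of 6 male SD rats was sequenced after ribosomal RNA had been removed, with 1 library per rat. The 3 FL rats (FL2, FL5 and FL12) had liver fibrosis after intraperitoneal CCl4 (carbon tetrachloride, a solvent toxic to hepatocytes), mixed with olive oil in equal parts and given at 2 mL/kg body weight, 2 times a week for 5 weeks. The 3 CL rats (CL5, CL6 and CL7) received olive oil alone at that volume. The age of the rats was not given in the sources used here.

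Stellate cells lie between hepatocytes and the sinusoidal endothelium and store vitamin A as retinyl esters while they are quiescent. After injury they lose these droplets, spread, contract and deposit collagen, and are then called myofibroblasts. Desmin and vimentin are filaments of stellate cells in either state, alpha smooth muscle actin is the usual mark of activation, and lecithin retinol acyltransferase, reelin and hepatocyte growth factor are known from the quiescent cells.

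Expression is given in FPKM, a count of fragments corrected for transcript length and for how many fragments a library mapped. The depth of the libraries was estimated here in relative terms alone, from the most common low value of the U6 small nuclear RNA genes. On that scale CL5 was the deepest (1), followed by CL7 (0.840), FL5 (0.750), FL2 and FL12 (0.677 each) and CL6 (0.656), and 67.5% to 93.8% of the low U6 values lay within 0.1 of a whole multiple of that value. Albumin (Alb), the main product of hepatocytes, lay at 31431 to 33392 FPKM in the CL rats and at 24149 to 25209 FPKM in the FL rats.

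Groups were compared with limma on log2(FPKM + 0.1) over the 14864 genes that averaged 0.1 FPKM or more, and a gene was called when its adjusted p was under 0.05 and its change at least 2-fold. On this scale the change of a gene with low FPKM is understated. The median log2 fold change of all genes tested was 0.29, and it became 0.08 with median scaling between rats and -0.04 with quantile normalization. Changes are therefore also given relative to 0.29.

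Of the 9 genes, 8 could be tested, since Ngfr had a mean under 0.1 FPKM. Des and Vim were called higher in the FL group, 2 of 8, where 9.29% of all genes tested were called higher. Called lower were 0 of the 8 with limma against 0.935% of all genes. At an unadjusted p under 0.05, 7 of the 8 were higher against 31.5% of all genes tested, and 0 lower against 4.04%. Without the limit on the fold change, Reln joined Des and Vim, so that 3 of 8 were higher against 16.9% of all genes, and 0 lower against 1.94%. All 3 FL rats lay above all 3 CL rats in 7 of the 8, against 35.7% of all genes tested, and in 0 of the 8 did they lie below, against 4.78%. Lrat was the exception.

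**Figure D1:**
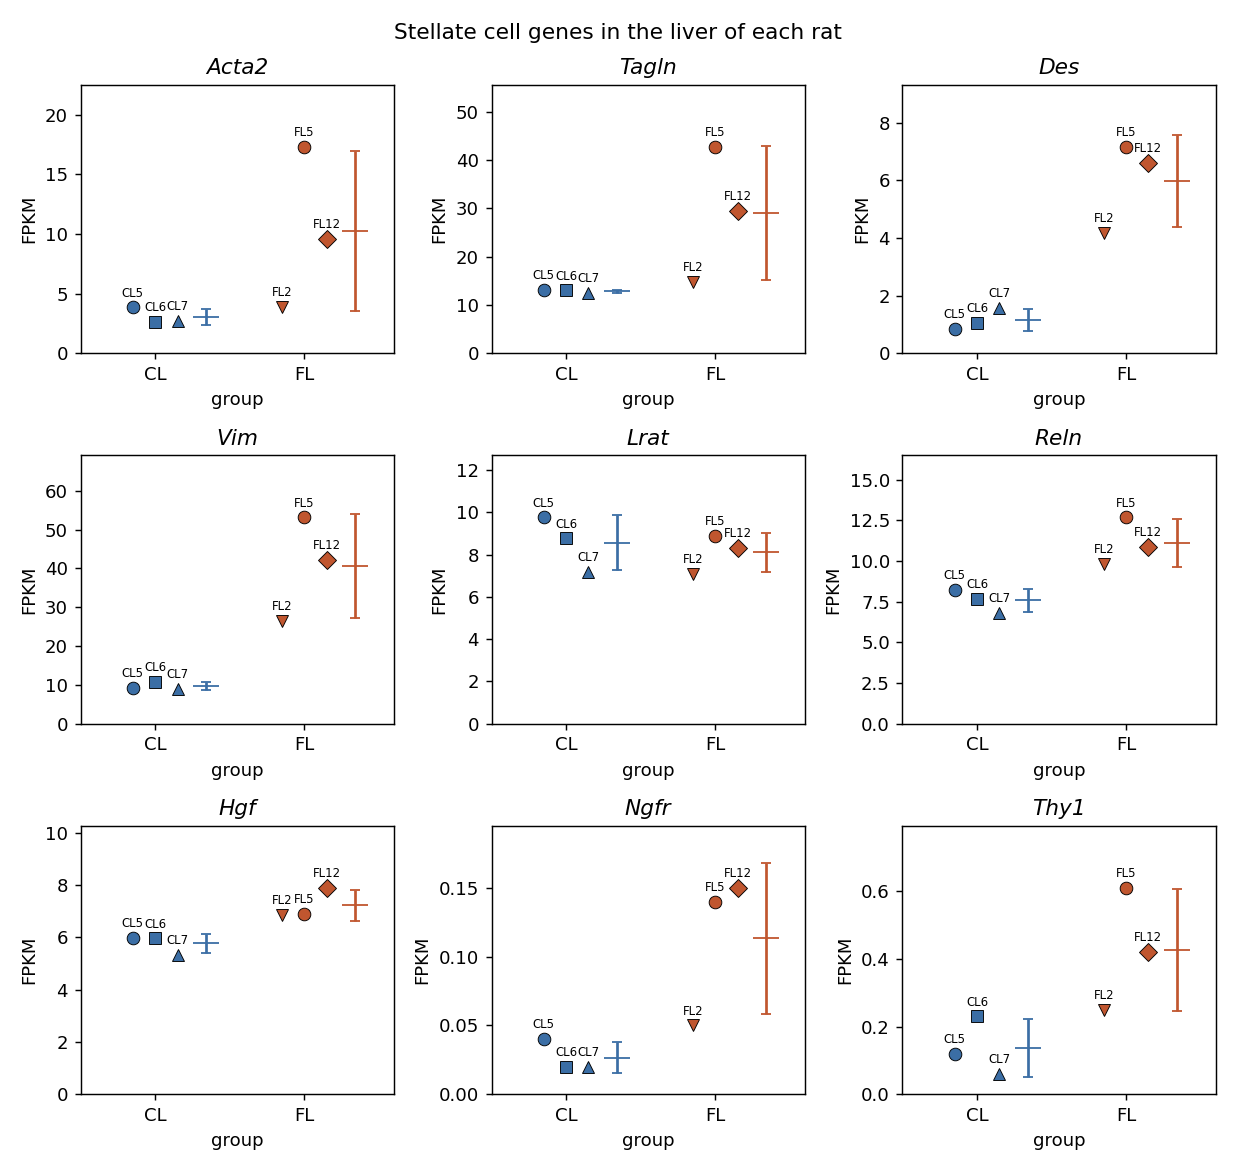
FPKM (linear axes from 0, a scale for each gene) of the 9 genes in each rat, with CL rats in blue, FL rats in orange, and the bar beside each group showing the mean with SD over 3 rats. Des and Vim lie far apart between the groups, Acta2 and Tagln of FL2 lie near the CL rats, and Lrat overlaps.

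Acta2 (ENSRNOG00000058039, chromosome 1) encodes alpha smooth muscle actin, the contractile actin of myofibroblasts and vascular smooth muscle. It read 3.85 FPKM in CL5, 2.62 in CL6 and 2.68 in CL7, against 3.87 in FL2, 17.3 in FL5 and 9.59 in FL12. FL2 stood barely above CL5, so the groups were separated by almost nothing, whereas FL5 was at 5.68 times and FL12 at 3.14 times the mean of the CL rats. The group means were 3.05 ± 0.693 and 10.3 ± 6.75 FPKM (SD, n = 3 rats each). A log2 fold change of 1.5 (standard error 0.47), or 1.21 above the median of all genes, did not pass with limma (adjusted p = 0.0609). Without FL2 it was 2.07 (adjusted p = 0.00607) and without FL5 it was 0.999 (adjusted p = 0.145), with 15 alternatives spanning adjusted p-values of 0.00607 to 0.172. Actin genes resemble each other closely, and as only uniquely mapped reads were counted, the level of Acta2 is uncertain. How many of its reads were lost in this way was not tested.

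Tagln (ENSRNOG00000017628, chromosome 8) encodes transgelin, an actin-binding protein of smooth muscle. CL5, CL6 and CL7 lay at 13.1, 12.99 and 12.4 FPKM, whereas 14.8 was reached in FL2, 42.7 in FL5 and 29.4 in FL12. The order of the FL rats was that of Acta2, with FL2 close above the CL group. Its log2 fold change was 1.04 (standard error 0.33, 0.76 above the median of all genes), and limma gave an adjusted p of 0.0621. Leaving out FL2 raised it to 1.46 (adjusted p = 0.00376) and leaving out FL5 lowered it to 0.70, and adjusted p-values spanned 0.00376 to 0.165 over the alternatives. Of the 15 alternatives, leaving out FL2 was the one in which Acta2 and Tagln were called.

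Des (ENSRNOG00000019810, chromosome 9) encodes desmin, the intermediate filament of muscle that also marks stellate cells of the rat. It read 0.83 FPKM in CL5, 1.06 in CL6 and 1.58 in CL7, against 4.18 in FL2, 7.16 in FL5 and 6.60 in FL12. Here FL2 was 3.61 times the mean of the CL rats, and the lowest FL rat was far above the highest CL rat. Des rose from 1.16 ± 0.384 to 5.98 ± 1.58 FPKM (SD, n = 3), and limma gave 2.28 ± 0.28 for its log2 fold change (± standard error) with an adjusted p of 0.00394. This was 1.99 above the median of all genes.

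Vim (ENSRNOG00000018087, chromosome 17) encodes vimentin, the filament of mesenchymal cells, which endothelial cells, macrophages and lymphocytes also contain. Its FPKM were 9.18 in CL5, 10.8 in CL6 and 8.99 in CL7, against 26.5 in FL2, 53.1 in FL5 and 42.1 in FL12. All FL rats stood well above the CL rats, FL2 at 2.74 times their mean. For the log2 fold change limma gave 2.01 ± 0.24 (± standard error) with an adjusted p of 0.00363, or 1.72 above the median of all genes. Des and Vim were called in each of 15 alternatives, with adjusted p-values up to 0.0192 and 0.0219. In liver tissue, more cells of a type and more RNA per cell cannot be told apart, nor can fewer cells and less RNA.

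Lrat (ENSRNOG00000025608, chromosome 2) encodes the acyltransferase that makes retinyl esters. It read 9.77 FPKM in CL5, 8.77 in CL6 and 7.18 in CL7, against 7.11 in FL2, 8.91 in FL5 and 8.33 in FL12. The groups overlapped, with the highest value in CL5 and the lowest in FL2. The log2 fold change was -0.07 (95% confidence interval -0.43 to 0.28, adjusted p = 0.758 from limma), which is -0.36 relative to the median of all genes. It became -0.30 with median scaling (adjusted p = 0.182) and -0.33 with quantile normalization (adjusted p = 0.151), with 15 alternatives spanning adjusted p-values of 0.151 to 0.940.

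Reln (ENSRNOG00000021441, chromosome 4) encodes reelin, a large secreted glycoprotein. The CL rats lay at 8.23, 7.70 and 6.83 FPKM (CL5, CL6, CL7), whereas FL2 was at 9.81, FL5 at 12.7 and FL12 at 10.9. All FL rats were above all CL rats by a modest margin. With limma the log2 fold change of 0.54 ± 0.14 (adjusted p = 0.0326) was under 2-fold and 0.25 above the median of all genes. With median scaling it was 0.32 (adjusted p = 0.126) and with quantile normalization 0.31 (adjusted p = 0.158), with the alternatives spanning 0.0223 to 0.158. Leaving out any rat but FL2 took its adjusted p over 0.05, to 0.0588 without CL5, 0.0828 without CL6, 0.118 without CL7, 0.106 without FL5 and 0.0723 without FL12, as did limma without trend (0.0669) and both scalings.

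Hgf (ENSRNOG00000007027, chromosome 4) encodes hepatocyte growth factor, a mitogen of hepatocytes that mesenchymal cells secrete. It read 5.99 FPKM in CL5, 5.96 in CL6 and 5.34 in CL7, against 6.86 in FL2, 6.90 in FL5 and 7.89 in FL12. The groups did not overlap, and FL12 was the highest. With limma the log2 fold change of 0.32 ± 0.12 (adjusted p = 0.106) was 0.03 above the median of all genes, and it was 0.04 with quantile normalization.

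Ngfr (ENSRNOG00000005392, chromosome 10) encodes the low-affinity neurotrophin receptor p75. It read 0.04 FPKM in CL5, 0.02 in CL6 and 0.02 in CL7, against 0.05 in FL2, 0.14 in FL5 and 0.15 in FL12. These values rest on few reads, and FL2 was close to CL5. Without a filter on low values limma gave a log2 fold change of 0.72 ± 0.26 (adjusted p = 0.119).

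Thy1 (ENSRNOG00000006604, chromosome 8) encodes a surface glycoprotein of nerve cells and fibroblasts, among them those of the portal tract. CL5, CL6 and CL7 read 0.12, 0.23 and 0.06 FPKM, against 0.25 in FL2, 0.61 in FL5 and 0.42 in FL12. FL2 lay just above CL6, so that the separation was narrow. From limma came a log2 fold change of 1.16 ± 0.43 (adjusted p = 0.0943), or 0.87 above the median of all genes. With a pseudocount of 1 it was 0.32, and with one of 0.01 it was 1.66, since values this low depend on the constant added. With quantile normalization it was 0.59 (adjusted p = 0.376).

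**Figure D2:**
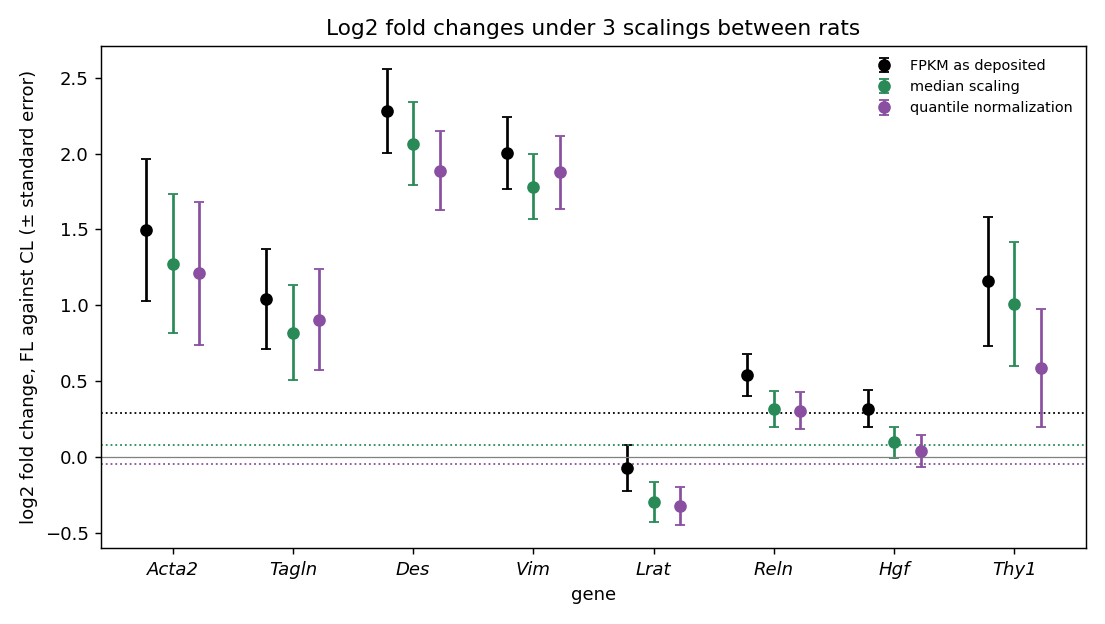
Log2 fold change of FL against CL (± standard error from limma, n = 3 rats per group) for the 8 genes tested, with the FPKM as deposited (black), median scaling (green) and quantile normalization (purple). Dotted lines give the median of all genes under each. Des and Vim lie near 2 under each, Hgf lies close to the dotted line and Lrat below it.

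The FL rats differed among themselves in the same order for most of the genes. FL2 was the lowest FL rat in 9 of the 9, and FL5 the highest in 7 and FL12 in 2 (Hgf and Ngfr). Among all genes tested FL2 was the lowest FL rat in 53.8%, and among those called higher in 68.4%. The highest FL rat was FL5 in 36.4%, FL12 in 41.1% and FL2 in 22.6% of all genes tested. The range between the FL rats was widest for Acta2 (2.13 on the log2 scale, against a median of 0.48 over all genes tested), followed by Tagln (1.52). For Des it was 0.76, and for Lrat, Reln and Hgf 0.32, 0.37 and 0.20. In the CL group Tagln varied by 0.07 and Thy1 by 1.04.

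By mean level, the CL group ran from Tagln (12.8 FPKM) through Vim (9.66), Lrat (8.57), Reln (7.59), Hgf (5.76), Acta2 (3.05) and Des (1.16) to Thy1 (0.137) and Ngfr (0.0267). Vim was above Lrat in CL6 and CL7 but not in CL5, and Lrat was above Reln in each CL rat. In the FL group the order was Vim (40.6 FPKM), Tagln (29.0), Reln (11.1), Acta2 (10.3), Lrat (8.12), Hgf (7.22), Des (5.98), Thy1 (0.427) and Ngfr (0.113). Vim was above Tagln and Lrat above Hgf in each FL rat, whereas FL5 had Acta2 above Reln and Des above Hgf, and FL2 had Acta2 below Lrat.

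Ratios of FPKM between 2 of the genes in the same rat are not moved by a scaling factor per rat. They are a description, as an exact permutation test of 3 rats against 3 cannot go below p = 0.1. Lrat/Des was 11.8, 8.27 and 4.54 in CL5, CL6 and CL7, and 1.70, 1.24 and 1.26 in FL2, FL5 and FL12. Reln/Des was 9.92, 7.26 and 4.32 in the CL rats and 2.35, 1.77 and 1.65 in the FL rats. Both ratios were lower in every FL rat, FL2 included, than in any CL rat. Hgf/Lrat was 0.613, 0.680 and 0.744 in the CL rats against 0.965, 0.774 and 0.947 in the FL rats, again without overlap. Thy1/Lrat was also without overlap, at 0.00836 to 0.0262 in the CL rats and 0.0352 to 0.0685 in the FL rats.

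Of the 6 ratios between genes of the contractile and filament group, 4 overlapped between the groups. Acta2/Des was 4.64, 2.47 and 1.70 in CL5, CL6 and CL7, and 0.926, 2.42 and 1.45 in FL2, FL5 and FL12, lowest in FL2. Vim/Des was 11.1, 10.2 and 5.69 in the CL rats and 6.33, 7.42 and 6.38 in the FL rats. Tagln/Acta2 was 3.39, 4.96 and 4.63 in the CL rats and 3.83, 2.47 and 3.07 in the FL rats. The others were added after the data were seen, and of these Vim/Acta2 also overlapped (2.38 to 4.13 and 3.07 to 6.84). Tagln/Des was lower in every FL rat (7.85 to 15.7 in the CL and 3.55 to 5.96 in the FL rats), and Vim/Tagln was higher (0.703 to 0.832 and 1.24 to 1.78).

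**Figure D3:**
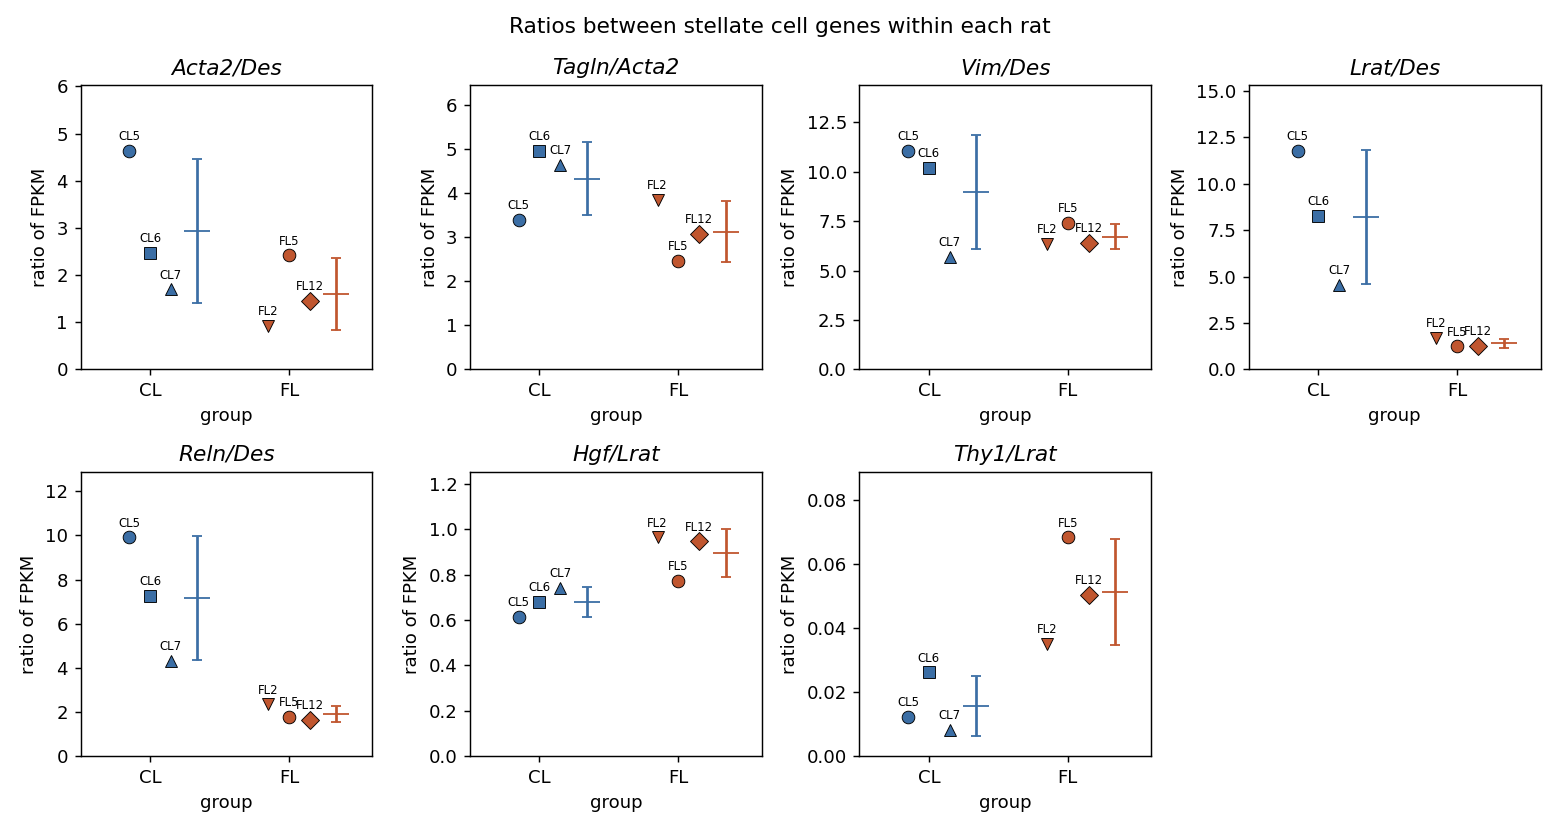
Ratios of FPKM between 2 genes within each rat (linear axes from 0), with CL rats in blue, FL rats in orange, and the bar beside each group showing the mean with SD over 3 rats. Lrat/Des and Reln/Des are lower in all FL rats, Hgf/Lrat and Thy1/Lrat higher, and the other 3 ratios overlap.

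For each of the 9 genes, the 3 genes with the most similar pattern were sought, using log2(FPKM + 0.1) of the 6 rats and Pearson's r, among genes that averaged 1 FPKM or more. As the rats fall into 2 groups and share the same libraries, r is a description only. Among the genes most like Acta2 were Spats2l (r = 0.994) and Serpinh1 (0.993). Serpinh1, the collagen chaperone, read 9.18 FPKM in CL5, 7.78 in CL6 and 8.27 in CL7, against 10.9 in FL2, 25.1 in FL5 and 17.5 in FL12, so it too was low in FL2. Tagln was most like Rhoa (0.993), Uba1 (0.993) and Ap2a2 (0.993).

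The pattern of Des was nearest to Rnf43 (r = 0.999), Tmem87b (0.997) and Ptn (0.997), and that of Vim to Dock10 (0.999), Ppt1 (0.999) and Pld3 (0.999). Such likeness was common for Vim, with 975 of 10534 genes at r of at least 0.95, and rare for Lrat, with 13. Lrat was most like Phtf2 (0.984), Aamdc (0.979) and Nfe2l1 (0.977). For Reln these were Rnf213 (0.998), Ssh3 (0.998) and Leprot (0.997), and for Hgf Gnb2l1 (0.998), Rabl3 (0.994) and Rpl5 (0.994). Ngfr was nearest to Fkbp9 (0.998), LOC100360726 (0.998) and Ptcd3 (0.998), and Thy1 to Tmem194 (0.996), Calm3 (0.995) and Ap2m1 (0.995).

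RefSeq promoter sequences (GRCr8, 250 bases before to 50 after the start of the gene) matched 6 of the 9 genes, Acta2, Des, Vim, Lrat, Reln and Hgf. Tagln, Ngfr and Thy1 had no entry. Both strands were searched for the CArG box, which serum response factor binds, and for MCAT (CATTCC), AP-1 (TGANTCA) and E-box (CANNTG) letters. The strict CArG box was in 0 of the 6, and in 1.64% of 27457 promoters. A looser CArG form with 1 G or C among its inner letters, added after the sequences were seen, was in Acta2 at -134 (CCCTATATGG) and -84 (CCTTGTTTGG) and in Lrat at -209 (CCAAGATAGG), and, strict matches included, in 9.27% of promoters. Positions count back from -1, the base before the start. MCAT was in Acta2 alone of the 6, at -196, and in 13.9% of promoters, AP-1 in 0 of the 6 and 7.33%, and an E-box in all but Vim and 71.6%. A match is a description of the letters.

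The bases before the start of Acta2, Des and Vim are printed to show where the contractile gene and the 2 called filament genes differ in these letters. They lie at chr1:241172504-241172753 on the minus strand (Acta2), chr9:84299376-84299625 on the plus strand (Des) and chr17:81577011-81577260 on the plus strand (Vim) of GRCr8, a build that the sources do not name for the FPKM, and capitals mark the looser CArG form, MCAT and the E-box.
Acta2: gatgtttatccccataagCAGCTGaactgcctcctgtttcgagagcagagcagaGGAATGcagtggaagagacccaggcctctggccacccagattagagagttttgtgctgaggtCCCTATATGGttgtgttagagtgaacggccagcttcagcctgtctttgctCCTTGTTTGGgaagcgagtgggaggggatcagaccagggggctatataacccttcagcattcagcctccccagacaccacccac
Des: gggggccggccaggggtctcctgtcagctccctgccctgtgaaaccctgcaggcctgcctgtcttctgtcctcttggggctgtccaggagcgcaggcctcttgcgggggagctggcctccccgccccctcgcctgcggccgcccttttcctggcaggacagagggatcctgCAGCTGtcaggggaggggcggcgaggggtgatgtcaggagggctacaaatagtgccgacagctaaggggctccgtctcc
Vim: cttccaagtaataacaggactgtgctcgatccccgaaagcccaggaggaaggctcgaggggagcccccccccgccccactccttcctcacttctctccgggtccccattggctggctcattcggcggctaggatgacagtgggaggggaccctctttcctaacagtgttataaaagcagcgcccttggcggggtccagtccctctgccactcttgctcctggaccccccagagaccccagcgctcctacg

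Lists of related genes place the 9 in their surroundings. Together 82 of their genes could be tested, and with limma 24 were called higher and 3 lower in the FL group, against 9.29% and 0.935% of all genes tested, the shares to set beside the counts of each list below. Of 13 tested genes known from activated stellate cells and myofibroblasts, 10 were called higher and 0 lower (0 at an unadjusted p under 0.05), and their median log2 fold change was 1.37, against 0.29 over all genes. With median scaling 7 and with quantile normalization 6 were called higher. Col1a1, a fibrillar collagen chain, rose by 4.24 on the log2 scale (adjusted p = 0.00519), Postn (periostin) by 4.16 (adjusted p = 0.00800) and Col3a1, the most abundant of the list, by 2.37 (adjusted p = 0.00490), from 49.0 ± 2.65 to 274 ± 115 FPKM (SD, n = 3). S100a6 rose by 2.0, Pdgfrb, the receptor of platelet-derived growth factor, by 1.69 and Sparc by 1.49 (adjusted p = 0.00437, 0.00688 and 0.0131), and Sparc was not called without CL7 or FL5. Col1a2, the partner chain of Col1a1, was listed at 0.01 to 0.02 FPKM in the CL rats and 0.03 to 0.18 FPKM in the FL rats, while Col1a1 reached 101 FPKM in FL5, so the level of a single row may be far from that of its transcript; the reason was not tested.

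Of 15 further genes known from quiescent stellate cells, 4 were called higher and 1 lower, with a median of 0.21. Rgs5 (2.10), Cygb (2.04), Tcf21 (1.98) and Bambi (1.55) rose on the log2 scale (adjusted p = 0.00490, 0.00308, 0.00414 and 0.00655). Cygb (cytoglobin) read 1.99 FPKM in CL5, 1.82 in CL6 and 1.66 in CL7, against 5.79 in FL2, 7.45 in FL5 and 11.1 in FL12, so FL2 stood above all CL rats, as with Des. Ecm1 fell by 1.37 on the log2 scale (adjusted p = 0.0101). These 5 were also called under all 15 alternatives. With quantile normalization limma also called Gfap lower (-1.17, adjusted p = 0.0222). Hand2 was called higher without FL2 (1.19, adjusted p = 0.00738), and Bmp5 without the limit on the fold change (0.75, adjusted p = 0.0238). Gfap, Hand2 and Bmp5 were named after their values were seen. The list median was -0.08 relative to all genes as deposited, -0.08 with median scaling and 0.00 with quantile normalization.

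Contractile proteins that serum response factor is known to drive, with that factor and its coactivators, had 3 of 14 tested genes called higher and 0 lower (0 at an unadjusted p under 0.05), with a median of 0.84. Cnn2 (calponin 2) rose by 1.56, Lmod1 (leiomodin) by 1.28 and Flna (filamin A) by 1.12 on the log2 scale (adjusted p = 0.00213, 0.0465 and 0.0381). Cnn2 was called under all 15 alternatives, while Lmod1 and Flna were not called under either scaling, nor when any rat but FL2 was left out, so that the list had 6 genes called higher without FL2 and 1 without any other rat. Tpm1, the most abundant, was higher by 0.88 (adjusted p = 0.0267, and 0.0556 and 0.0733 with median scaling and quantile normalization), under 2-fold. Actg2, the smooth muscle gamma actin, read 0.27 FPKM in CL5, 0.39 in CL6 and 0.30 in CL7, against 0.23 in FL2, 2.40 in FL5 and 0.63 in FL12, with FL2 below the CL rats (named after its values were seen). Srf itself had a log2 fold change of 0.46 (adjusted p = 0.0808).

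Of 9 other filament genes of the liver, Lmna (lamin A) rose by 1.14 on the log2 scale (adjusted p = 0.0176) and Prph (peripherin) fell by 1.41 (adjusted p = 0.0444). Lmna was not called under either scaling, nor without CL6, CL7, FL5 or FL12. Prph was called under both scalings, but in 6 of 14 alternatives overall and, of the rats left out, without FL12 alone. Krt18, a keratin of hepatocytes and the most abundant, was higher by 0.74 (adjusted p = 0.0169, and 0.0625 with median scaling), under 2-fold. In retinoid handling, the setting of Lrat, 2 of 16 tested genes were called higher and 0 lower (1 at an unadjusted p under 0.05), with a median of 0.09. Lpl (lipoprotein lipase) rose by 2.18 and Rarg, a retinoic acid receptor, by 1.38 on the log2 scale (adjusted p = 0.00595 and 0.00482), and Rarg fell under 2-fold with quantile normalization and with a pseudocount of 1 (0.92 in each). Cyp26b1, a retinoic acid hydroxylase, was called lower with quantile normalization (-1.57, adjusted p = 0.0358) and without CL7 (named after its values were seen). Rbp4, the retinol carrier of plasma and the most abundant, read 2104 ± 132 FPKM in the CL and 1899 ± 70.4 FPKM in the FL group. Its log2 fold change from limma was -0.15, with a wide 95% confidence interval of -0.81 to 0.51 (adjusted p = 0.740).

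Of the receptors and the adaptor of reelin, 1 of 3 genes was called higher and 1 lower. Vldlr, a receptor, rose from 0.360 ± 0.0755 to 1.46 ± 0.632 FPKM (log2 fold change 1.68, adjusted p = 0.0164 from limma), and was not called with quantile normalization (adjusted p = 0.0594, in the 3 scalings from 0.0164 to 0.0594), nor with a pseudocount of 1 or without CL5, CL7 or FL5. Dab1, the adaptor, fell from 1.36 ± 0.197 to 0.517 ± 0.118 FPKM, by 1.26 on the log2 scale (adjusted p = 0.0135), and was called under both scalings but not without CL5 or CL7 or with a pseudocount of 1. Lrp8, the other receptor, read 0.0467 ± 0.0321 and 0.170 ± 0.0608 FPKM (adjusted p = 0.181).

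Around Hgf, 2 of 9 tested genes were called higher and 0 lower (2 at an unadjusted p under 0.05). These were the proteases St14 (log2 fold change 1.57, adjusted p = 0.0167) and Plau (1.12, adjusted p = 0.0198), and neither was called with quantile normalization, with a pseudocount of 1, or without CL6, CL7 or FL5, nor Plau with median scaling or St14 without FL12. The receptor Met had a log2 fold change of -0.26 (adjusted p = 0.125) with all FL rats below all CL rats, and of -0.48 (adjusted p = 0.0319) with median scaling and -0.43 (adjusted p = 0.0486) with quantile normalization, under 2-fold. The activating proteases Hgfac and Hpn stood at 0.03 and -0.09, and Hpn was the most abundant of the list (84.7 ± 6.27 and 79.3 ± 5.06 FPKM). The protease inhibitors Spint1 and Spint2 stood at 1.11 and -0.33 (adjusted p = 0.134 and 0.0795; for Spint2 0.0210 with median scaling and 0.0487 with quantile normalization, under 2-fold), and Mst1 and its receptor Mst1r, relatives of Hgf and Met, at 0.69 and -0.45 (adjusted p = 0.475 and 0.587).

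Among neurotrophins and their receptors, 1 of 5 tested genes was called higher and 0 lower (0 at an unadjusted p under 0.05). Nradd, a relative of Ngfr, rose from 0.0467 ± 0.0379 to 0.380 ± 0.131 FPKM (log2 fold change 1.70, adjusted p = 0.0278), a call that quantile normalization ended (adjusted p = 0.145, in the 3 scalings from 0.0278 to 0.145), as did a pseudocount of 1 and leaving out any rat but FL5. Sort1 (sortilin), the most abundant, was higher by 0.76 (adjusted p = 0.0132, and 0.0917 with quantile normalization), under 2-fold. Ntf4 stood at 1.93 (adjusted p = 0.0626) and Ntf3 at 0.25. Bdnf, Ntrk2 and Ntrk3 were under 0.1 FPKM on average and not tested.

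**Figure D4:**
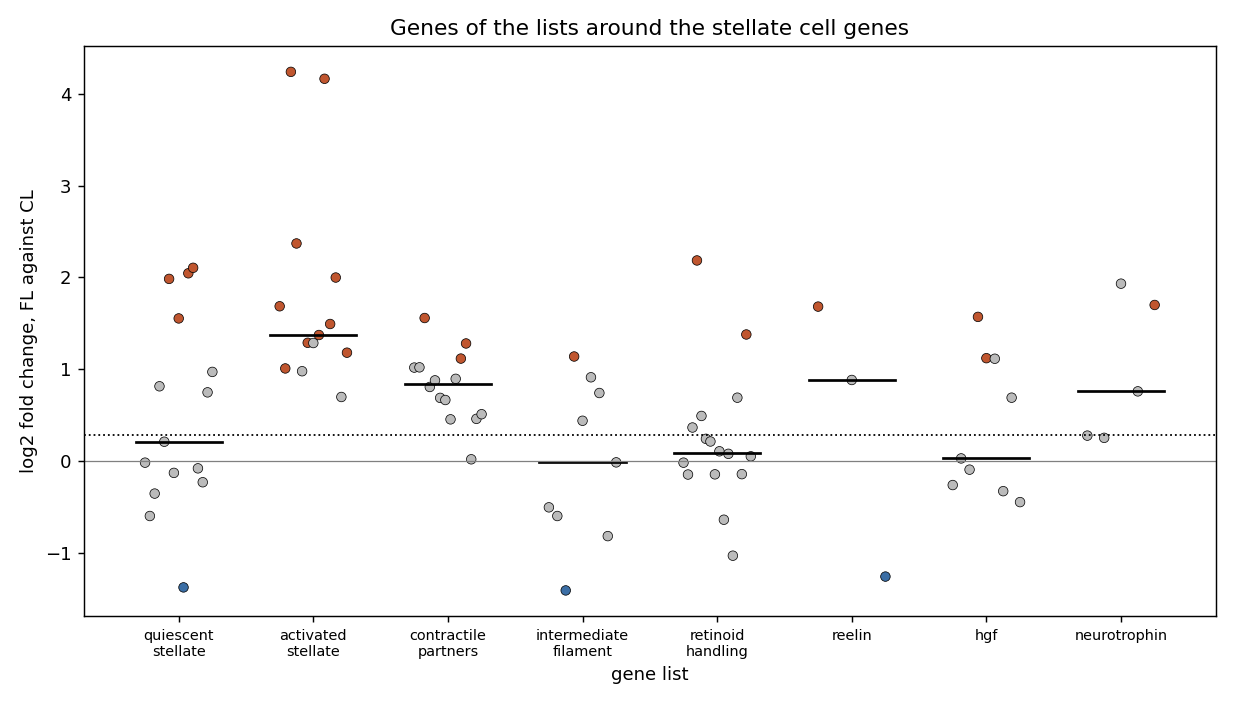
Log2 fold change of FL against CL for each tested gene of the 8 lists, with genes called higher in orange, called lower in blue and others in grey. Black lines are list medians and the dotted line is the median of all genes tested (0.29). The list of activated cells has its median at 1.37, and that of quiescent cells at 0.21.

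Several of the 9 genes are also expressed by other cells, whose markers were read in the same rats, and 0 marker genes stood at 0 in all 6 rats. Smooth muscle markers, of which 5 (Myh11, Cnn1, Actg2, Lmod1 and Smtn) are also on the contractile list, summed to 10.1 FPKM in CL5, 10.8 in CL6 and 9.68 in CL7, against 11.8 in FL2, 17.9 in FL5 and 15.7 in FL12, and 2 of 7 (Lmod1 and Mcam) were called higher. Smtn was the most abundant (6.57 ± 0.607 and 6.65 ± 0.365 FPKM). They followed the order of Acta2 and Tagln among the FL rats, and their part in these was not tested. Portal fibroblast markers had 3 of 5 tested genes called higher (Eln, Fbln1 and Entpd2), and Dpt, the most abundant, read 83.6 FPKM in CL5, 25.5 in CL6 and 54.8 in CL7, against 49.3 in FL2, 58.6 in FL5 and 40.7 in FL12. The list summed to 87.2, 29.5 and 58.7 FPKM in the CL rats against 61.1 in FL2, 83.3 in FL5 and 74.6 in FL12, and Mfap4 was at 0 in all CL rats. Its part in Thy1 was not tested.

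Lymphocyte markers, which bear on Vim, had 1 of 7 tested genes called higher (Cd2), with Cd79a the most abundant. They summed to 1.72 FPKM in CL5, 2.0 in CL6 and 2.80 in CL7, against 5.12 in FL2, 4.98 in FL5 and 2.88 in FL12. Macrophage markers had 3 of 7 called higher (Cd68, Csf1r and Marco) and summed to 127, 116 and 121 FPKM in the CL rats and to 280 (FL2), 268 (FL5) and 149 (FL12) FPKM, with Clec4f the most abundant. In the sums of both lists FL2 was the highest FL rat, unlike in the 9 genes. Gene by gene the order differed. Cd68, Adgre1, Csf1r, Cd163 and Cd5l were highest in FL5, and Clec4f and Marco in FL2. Of the tested lymphocyte genes, Cd3e, Cd3d and Cd3g were highest in FL5, Cd2, Cd79a and Nkg7 in FL2, and Cd79b in FL12. Endothelial markers summed to 64.8 to 73.7 FPKM in the CL and 75.5 to 88.9 FPKM in the FL rats, with Kdr the most abundant and Vwf called higher, 1 of 6. Their part in Vim was not tested.

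Markers of cycling cells summed to 2.49 FPKM in CL5, 4.71 in CL6 and 3.02 in CL7, against 4.18 in FL2, 19.5 in FL5 and 16.6 in FL12, with 2 of 6 called higher (Mki67, the most abundant, and Birc5). FL2 lay within the CL rats in this sum, as it lay near them in Acta2 and Tagln, and a link was not tested. Hepatocyte markers, led by Alb, had 0 of 8 called with limma (1 at an unadjusted p under 0.05) and summed to 47974 to 50427 FPKM in the CL and 40955 to 42609 FPKM in the FL rats. Cholangiocyte markers (0 of 5 called with limma, 1, Cftr, higher at an unadjusted p under 0.05) summed to 5.39 to 7.75 and 5.38 to 11.4 FPKM, led by Epcam. Mesothelial markers (0 of 5 called with limma, 1, Wt1, higher at an unadjusted p under 0.05) summed to 5.66 to 8.78 and 3.99 to 7.40 FPKM, led by Gpm6a. Markers of nerve sheath cells, which bear on Ngfr, summed to 0.910 to 1.44 and 0.570 to 1.0 FPKM, led by Prph, and Sox10 was at 0 in 4 of 6 rats.

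Of the marker genes named as called, Eln, Fbln1, Cd68 and Marco were called when any rat was left out and under both scalings. Mki67, Vwf and Entpd2 were called without FL2 alone among the rats left out and under neither scaling, and so was Lmod1. Cd2 and Csf1r were called under neither scaling, and were not called without FL5 or, for Cd2, without CL5 or CL6. Birc5 was not called with quantile normalization or without CL5, CL7, FL5 or FL12, and Mcam was not with quantile normalization. A pseudocount of 1 ended the calls of Cd2, Mcam, Mki67, Vwf, Entpd2 and Lmod1.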

How the data were processed

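The authors removed adapters, low-quality bases and short reads with FASTX-Toolkit, used TopHat2 for alignment, kept uniquely mapped reads for counting and deposited FPKM with 2 decimals, without pooling rats. The sources name GRCh38, although the gene identifiers are rat Ensembl ones, so no positions were taken from that build. Groups came from the labels. In the same table, 2 further value columns had no sample in the series and were not used.

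limma 3.58.1 in R 4.3.3, with a prior variance following the mean, was fitted to log2(FPKM + 0.1) of all 14864 genes that averaged 0.1 FPKM or more, with Benjamini-Hochberg adjustment over all of them, and errors are its moderated standard errors. The filter was recomputed whenever a rat was left out or the values were scaled. Median scaling used 9201 genes above 1 FPKM in every rat. The procedure was tested on simulated data. Motifs, ratios and figures used Python 3.11.15 with numpy 2.4.6, pandas 2.3.3 and matplotlib 3.10.9.

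The genes and lists were chosen with earlier results of these data known. Named genes were the 9, of each list the called genes (at most 6, by size of change) and the most abundant, all genes of the reelin, Hgf and neurotrophin lists, and the most abundant gene of each marker list, with further genes named after their values were seen. Some genes these rules would name are not reported here. The range between rats of a group, 3 of the ratios, the order of the FL rats and the looser CArG form were also added after the data were seen. Alternatives were other pseudocounts, filters, scalings and limma priors, no limit on the fold change, and each rat left out. Protein identities were not analysed here.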

Additional observations from a re-analysis of the deposited data

How the results depend on the processing

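Des and Vim were called higher under each of the 15 alternatives, Hgf and Lrat under none, and Thy1 under none of the 14 in which it was tested. Reln was called only without a limit on the fold change. Acta2 and Tagln were called without FL2 alone, so that the number of the 9 genes called higher ran from 2 to 4 when each rat was left out, and the number called lower was 0 throughout with limma. The log2 fold change of Lrat turned from -0.07 to 0.026 without CL5 and to 0.018 without FL2, within its error, and it lay between -0.19 (without CL7) and 0.026 when each rat was left out.

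Over all genes, 1381 were called higher and 139 lower. Higher were 462 with a pseudocount of 1, 854 with a mean of at least 1 FPKM, 824 with median scaling, 453 with quantile normalization and 2518 without a limit on the fold change, and 740 to 1831 when each rat was left out. Lower were 72 with a pseudocount of 1, 231 with quantile normalization and 288 without the limit, and 81 to 160 with each rat left out. Genes called higher made up 90.9% of calls, 82.1% with median scaling and 66.2% with quantile normalization. For the contractile list 3 genes were called higher, 6 without FL2 and 1 without any other rat. Of the list genes, 24 were called higher and 3 lower. Higher were 12 with quantile normalization and 14 to 31 with each rat left out. Lower were 1 with a pseudocount of 1 or a mean of at least 1 FPKM, 5 with quantile normalization, and 1 to 3 with each rat left out. Some alternatives held fewer genes or rats, and why the counts moved was not tested. No paired analysis was made, because the rats were divided at random into the groups and CL5 and FL5 are separate rats. The absolute depth of each library was not derived here, which limits genes with low FPKM such as Ngfr and Thy1, and 3 rats per group limit every test.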
